A study of Homo sapiens with 32 samples.

Results

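The regions described here are the 2000 nt upstream of the annotated start of protein-coding genes, read on the strand opposite to the gene, and kept where no annotated gene overlapped them on that strand. Of 19234 candidate regions in GRCh37, 11826 met this rule, so the choice used annotation alone and no measured value. The measurements were iCLIP tags, each the crosslink site of a cDNA, from 12 libraries of HEK293T FlpIn, a widely used line of human embryonic kidney origin with a recombination site for transgenes. In 9 of them FLAG-tagged Alyref, Chtop or Nxf1 (3 libraries each) was pulled down with anti-FLAG antibody. The 3 Control libraries came from a line with the FLAG construct alone and give the background of the procedure. The tagged proteins were switched on with tetracycline during 48 h. Chtop and Alyref cells received 10 ng/mL, Nxf1 cells 5 ng/mL, and no dose was stated for the Control. The labels do not say that the 3 libraries of a group came from separate cultures, so the p-values below measure only the spread between these libraries.

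Many human promoters fire in both directions. The upstream antisense RNA that results is capped but usually short and unstable, because early poly(A) signals and a scarcity of 5′ splice sites lead to early termination and decay by the nuclear exosome. TREX, which makes mRNA ready for nuclear export, contains Alyref and Chtop, and Nxf1 is the export receptor that carries the mRNA through the nuclear pore. Whether these factors also contact the antisense product of a promoter, and how far from the start, was the question put to the tags here. Tag counts hold RNA abundance and binding together, and the 2 cannot be told apart.

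The libraries held between 6998 and 630540 tags outside the mitochondrial chromosome, and replicate 1 was the shallowest of each group. The sequencing runs named in the labels differed between replicate numbers but not between groups. Antisense tags numbered 430, 1916 and 1864 in Alyref replicates 1 to 3, 254, 1918 and 1481 in Chtop, 37, 540 and 935 in Nxf1 and 27, 150 and 175 in the Control. Levels are given as CPM, tags per 1000000 of these tags in the library. A count of 0 in a region allowed up to 4.76 CPM in Alyref 2, taken as 3 tags, but up to 429 CPM in Control 1. Such limits and the intervals below cover counting error only.

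Several of the regions with most tags had a listed small RNA gene nearby. The sequences of 3 such regions are shown first, beside 2 with none listed, so that their crosslinked letters can be compared. Each line gives, 5′ to 3′ on the antisense strand, the 100 bases of the region that held most factor tags, with crosslinked bases of the 3 factors in capitals. The regions shown are 5 of the first 6 of a ranking by mean CPM over the 9 factor libraries, restricted to regions with tags at 10 or more bases and in at least 2 libraries of a factor.

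GATD3: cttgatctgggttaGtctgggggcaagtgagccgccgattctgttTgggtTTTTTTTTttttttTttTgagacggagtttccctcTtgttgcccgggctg
PLEKHG2: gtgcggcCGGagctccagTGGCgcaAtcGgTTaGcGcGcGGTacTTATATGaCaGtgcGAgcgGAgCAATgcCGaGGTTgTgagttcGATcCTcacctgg
SMARCC2: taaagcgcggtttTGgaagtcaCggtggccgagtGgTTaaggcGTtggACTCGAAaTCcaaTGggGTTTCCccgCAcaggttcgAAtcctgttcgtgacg
DPP9: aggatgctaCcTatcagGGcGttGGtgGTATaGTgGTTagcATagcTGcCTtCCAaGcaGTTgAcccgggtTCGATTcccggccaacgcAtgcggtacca
PPP6R3: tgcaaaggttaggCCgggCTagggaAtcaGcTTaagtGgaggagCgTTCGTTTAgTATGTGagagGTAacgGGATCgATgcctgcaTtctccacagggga

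The windows lie in GRCh37 at chr21:45552884-45552983 (minus strand) for GATD3, chr19:39902812-39902911 (minus) for PLEKHG2, chr12:56584130-56584229 (plus) for SMARCC2, chr19:4724064-4724163 (plus) for DPP9 and chr11:68227609-68227708 (minus) for PPP6R3. No annotated gene of GENCODE lay there on that strand. Transfer RNA (tRNA) genes are not part of that annotation. The RefSeq gene table, which is of GRCh38 and gives no strand, placed the tRNA gene TRI-TAT1-1 within 2000 nt upstream of PLEKHG2 or inside it, TRS-CGA4-1 likewise for SMARCC2, and TRG-TCC1-1 and TRV-CAC3-1 for DPP9. It placed RN7SL1, a gene for the 7SL RNA of the signal recognition particle, at RPS29. No such gene was listed for GATD3 or PPP6R3. Whether the tags of the other windows lie on the listed genes themselves was not tested. Tags of such a gene and of promoter antisense RNA therefore cannot be told apart in these windows. The same holds for PPP6R3, where an unlisted copy of such a gene was not looked for. In the PLEKHG2 window 112 of the 113 factor tags of the region lay on 46 bases, and in the SMARCC2 window 75 of 78 lay on 29 bases. In the DPP9 window 73 of 75 lay on 37 bases, and in the PPP6R3 window 60 of 62 lay on 35 bases. The GATD3 window differed from these, with 16 of 39 tags and 12 of its 13 crosslinked bases a T, most of them in a run of T.

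Because of this, regions were also sorted by the RefSeq table. Of the 11826 regions, 11613 matched a RefSeq gene by symbol and chromosome, and 48 had a tRNA or 7SL gene inside the gene or within 2000 nt upstream of it. This sorting was made after the values were seen, so its numbers are a description without a test. The 48 regions took 12.004% to 18.605% of the antisense tags of the Alyref libraries and 1.89% to 5.51% of those of the Chtop libraries. They took 2.70%, 21.7% and 9.84% in Nxf1 replicates 1 to 3 and 7.41%, 12% and 4.57% in the Control. Every Alyref library thus lay above every Chtop library, while Nxf1 and Control libraries fell on both sides, and the Nxf1 1 value rested on 1 tag. At least 1 tag was found in 64.6% of these regions, against 31.2% of the others.

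**Figure D1:**
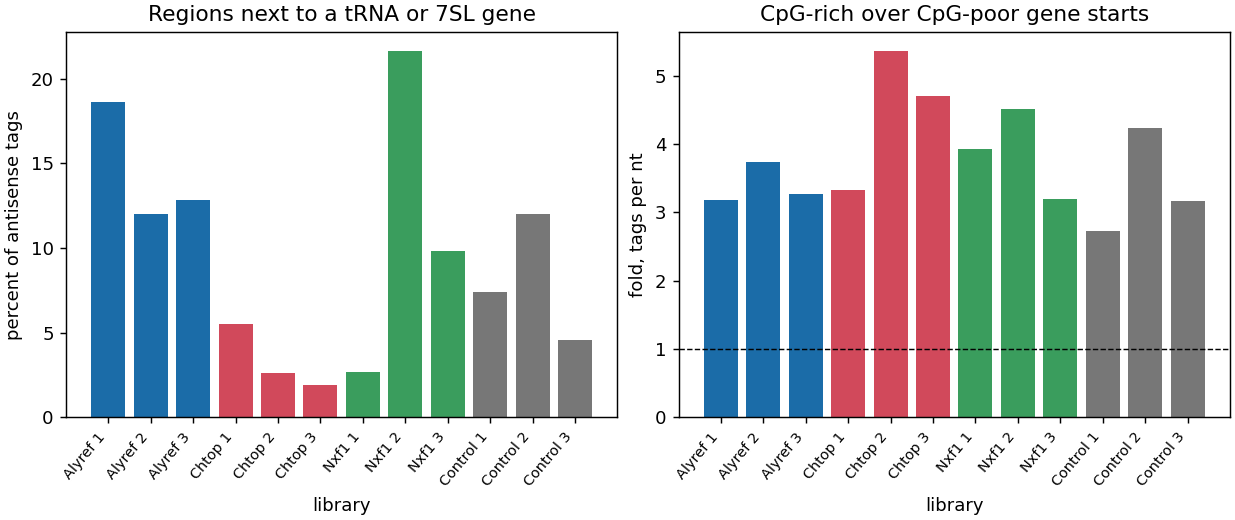
Left, the share of each library's antisense tags that fell in the 48 regions next to a tRNA or 7SL gene. Right, tags per nt in regions of CpG-rich gene starts over those of CpG-poor gene starts, with the dashed line at equal density. Bars are single libraries, and every bar on the right lies above 1, from 2.72 to 5.37.

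The amount of antisense tags was compared first. The share of a library's tags in upstream antisense regions averaged 0.381% ± 0.129 (SD, n = 3) in Alyref. Chtop libraries averaged 0.414% ± 0.110 (SD, n = 3), those of Nxf1 0.478% ± 0.0387 (SD, n = 3) and those of the Control 0.395% ± 0.0765 (SD, n = 3). Single libraries ran from 0.304% in Alyref 2 (95% Wilson interval 0.291% to 0.318%) to 0.541% in Chtop 1 (0.479% to 0.612%). Replicate 1 was the highest of the 3 libraries for Alyref, at 0.530%, and for Chtop. No difference from the other factors (exact permutation p = 0.238 to 0.857) or from the Control (exact permutation p = 0.3 to 0.8) passed the threshold of 0.05, and 3 libraries against 3 cannot give a p below 0.1. The Nxf1 libraries lay 0.0835 percentage points above the Control on average, a difference within the spread of the Control libraries, which ran from 0.323% to 0.476%.

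Densities per base set these amounts beside other windows of these genes, where such windows could be defined. The antisense density was taken over all 11826 regions. The other windows were 11804 first exons, 10514 first introns and 10090 distal windows, so the sets of genes differed in part. Ratios restricted to genes with both windows were not computed. The antisense regions held 162 ± 54.8 CPM per Mb (SD, n = 3) in Alyref, 176 ± 46.7 (SD, n = 3) in Chtop, 203 ± 16.4 (SD, n = 3) in Nxf1 and 168 ± 32.5 (SD, n = 3) in the Control. The sense first exon, counted over its first 2000 nt, was denser in all 12 libraries, by 6.17-fold in Control 3 to 51.0-fold in Alyref 2. The first 2000 nt of the first intron were denser too, by 1.69-fold to 4.63-fold. Windows 10000 to 12000 nt upstream on the antisense strand, also free of genes, were less dense in all 12 libraries. There the antisense regions held 1.53-fold (Control 3) to 5.15-fold (Control 1) more tags per base. Both ends of that range were Control libraries, and the upper one rested on 4 distal tags.

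**Figure D2:**
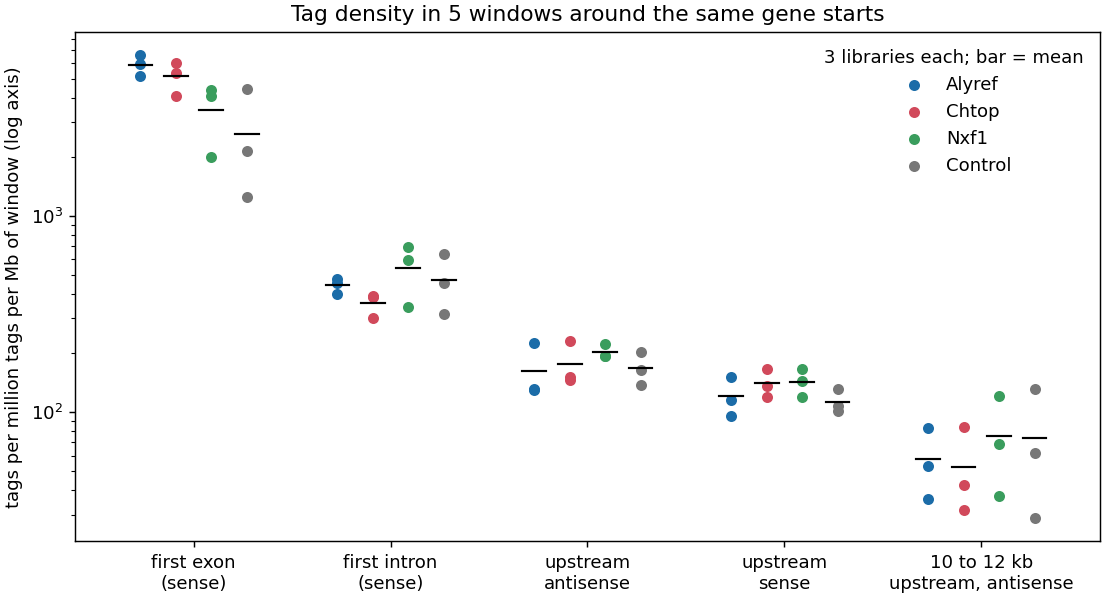
Tag density in the upstream antisense regions and in 4 other windows of those genes that have them, in CPM per Mb on a log axis. Points are libraries and bars are means of 3. The upstream sense windows are the 4679 free of genes on both strands, against 11826 antisense regions. First exons stand highest in all 12 libraries and distal windows lowest in 11, and the antisense points of the 4 groups overlap.

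The strand of the upstream signal was examined in the 4679 windows free of annotated genes on both strands. The antisense to sense ratio ran from 0.817-fold in Chtop 3 to 1.51-fold in Control 3 and lay above 1 in 7 of 12 libraries. On the sense strand the 100 nt next to the start held 478 of 1332 tags in Alyref and 355 of 1216 in Chtop. Nxf1 had 98 of 444 sense tags there and the Control 17 of 96. A ratio without this step was not computed. In no group did all 3 libraries hold more tags on the antisense than on the sense strand. The label of antisense transcripts describes where the tags lie, and the files hold no measurement of a transcript's start or end.

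Of the ratios to other windows, the ratio to the first exon set the factors furthest apart. On the log2 scale it was -5.23 ± 0.48 (SD, n = 3) in Alyref, -4.89 ± 0.65 (SD, n = 3) in Chtop, -4.02 ± 0.73 (SD, n = 3) in Nxf1 and -3.77 ± 1.07 (SD, n = 3) in the Control. First exons were most densely tagged in Alyref, at 5897 ± 699 CPM per Mb (SD, n = 3), and least in the Control, at 2604 ± 1641 (SD, n = 3), while the antisense densities of the 4 groups overlapped. Nxf1 lay 1.04 above the other factors, in 2 of 3 replicate numbers, with overlapping libraries and an exact permutation p of 0.0952 (adjusted p = 0.945 over 21 tests). With Chtop replicate 1 left out the exact permutation p was 0.0357, unadjusted and the smallest that the remaining libraries allow. This comparison thus changed sides of the threshold with that library. Against the Control, Alyref differed by -1.46 and Chtop by -1.12, each with an exact permutation p of 0.2. None of the 42 comparisons of 7 measures passed the threshold, and the smallest adjusted p was 0.9.

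The position of the tags along the region was read in 100 nt steps from the start. The first 500 nt were denser than the last 500 nt in all 12 libraries, by 1.44-fold to 3.62-fold. The log2 ratio was 1.25 ± 0.26 (SD, n = 3) in Alyref, 1.29 ± 0.25 (SD, n = 3) in Chtop, 1.19 ± 0.66 (SD, n = 3) in Nxf1 and 0.86 ± 0.37 (SD, n = 3) in the Control. No difference from the Control passed the threshold (exact permutation p = 0.2 to 0.7), and all 3 factors lay below the Control, by -0.11, -0.17 and -0.34, in regions without an antisense-strand gene within a further 5000 nt, and by -0.21, -0.57 and -0.22 in a 1000 nt window. Over all regions the fullest step was at 400 to 500 nt in 6 of the libraries, among them Alyref 1, 2 and 3. The PLEKHG2 window shown above lies 398 to 497 nt from the start. Without the 48 regions the fullest step of Alyref 2 and 3 and of Chtop 3 moved to 200 to 300 nt, and only Chtop 2 kept 400 to 500 nt. The mean density at 400 to 500 nt then fell from 370 to 209 CPM per Mb in Alyref and from 283 to 243 in Chtop.

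**Figure D3:**
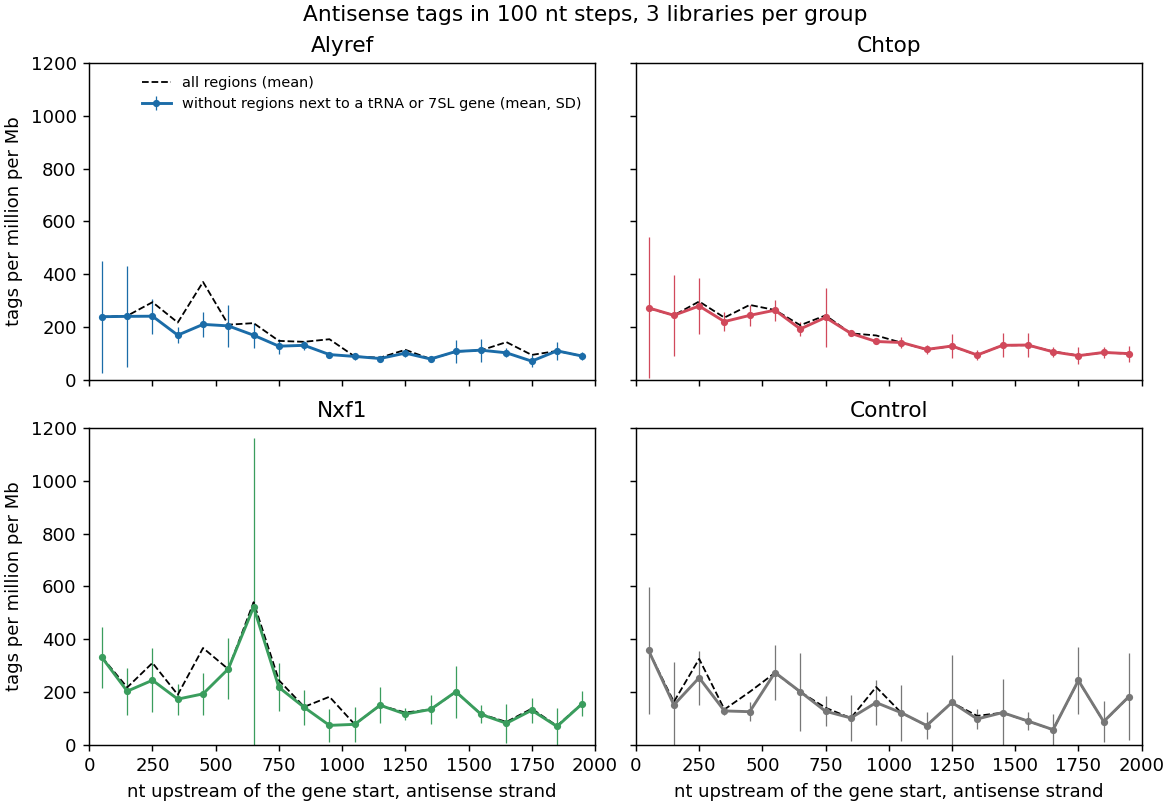
Antisense CPM per Mb in 100 nt steps from the gene start, for each group. Colored lines are means with SD over 3 libraries without the 48 regions next to a tRNA or 7SL gene, and dashed lines are means over all regions. The dashed Alyref line reaches 370 at 400 to 500 nt where the solid one is at 209, and the Nxf1 point at 600 to 700 nt rests on 12 tags of the shallow Nxf1 1.

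Close to the start the libraries of a group were unlike each other. The first 100 nt held 4.23% and 4.67% of antisense tags in Alyref 2 and 3 but 10.7% in Alyref 1. For Chtop the values were 4.28% and 3.58% in replicates 2 and 3 and 12.6% in replicate 1. Nxf1 2 and 3 held 9.07% and 9.84% there, and Control 2 and 3 held 12.7% and 14.9%. Nxf1 1 held 5.41% and Control 1 3.70%, which were 2 and 1 tags. The region of SLC32A1 alone gave 13 of the 19 tags of Control 2 in this step and 17 of the 49 of Nxf1 2. Without it, as tried after seeing the data, Control 2 and 3 held 4.38% and 11.3%, Nxf1 2 and 3 held 6.12% and 8.17%, Alyref 9.005%, 3.42% and 4.10% and Chtop 10.1%, 3.57% and 3.12%. The sense strand showed another shape. First exon density in Alyref was highest in the first 100 nt, at 9359 CPM per Mb, and came to 3082 at 500 to 600 nt, whereas Chtop had 4777 and 5218 at these steps.

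The base at the crosslink was uracil in 45.9% ± 5.85 (SD, n = 3) of antisense tags of Alyref, 46.9% ± 10.7 (SD, n = 3) of Chtop, 41.6% ± 6.21 (SD, n = 3) of Nxf1 and 39.8% ± 1.54 (SD, n = 3) of the Control. UV crosslinking favours uracil, and T made up 25.5% of all bases on this strand of the regions. In first exons, where T was 18.9% of bases, the shares were 39.98%, 42.9%, 34.0% and 30.0% for Alyref, Chtop, Nxf1 and Control. No factor's antisense uracil share passed the threshold against the Control (exact permutation p = 0.3 to 0.9), and single libraries ran from 34.6% in Chtop 1 to 54.7% in Chtop 2.

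Which promoters carried antisense tags was described next. A tag of any library was found in 3700 regions (31.3%), of which 2086 had a single tag, and 479 regions held 50% of the 9727 tags. Alyref tags were found in 2156 regions, Chtop tags in 1942, Nxf1 tags in 904 and Control tags in 263, an order that follows depth. Tags of all 3 factors were found in 273 regions. Gene starts rich in CpG, with an observed to expected ratio of at least 0.6 in the 500 nt to each side, made up 7112 of the regions. Their antisense density exceeded that of the other 4714 regions in all 12 libraries, by 2.72-fold in Control 1 to 5.37-fold in Chtop 2. Without the 48 regions the range was 2.48-fold to 5.34-fold.

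Antisense density also went with tags on the sense side. In the 6057 regions whose first exon held no factor tag it was 83.1 CPM per Mb in Alyref, 80.6 in Chtop and 96.6 in Nxf1. In the 4223 regions with 1 to 9 such tags it was 222, 250 and 232, and in the 1510 regions with 10 to 99 it was 305, 349 and 545. The Control had 113, 180 and 350 in the same classes, so the rise was present in the background as well. The 36 regions with 100 or more such tags had 313 in Alyref, 228 in Chtop, 299 in Nxf1 and 226 in the Control, so only the Alyref mean was higher still. This small class held 2 Control tags and 9 Nxf1 tags. Chtop 1, Nxf1 1 and Control 1 had 0 tags in it, and Alyref 1 and Nxf1 3 were less dense than in the class before. All other libraries were denser. Regions with a gene on the antisense strand within a further 5000 nt, 2206 in number, were 1.42-fold to 2.25-fold denser than the other 9620 in all 12 libraries. This class takes a gene on either side of the region, and only a gene lying before the region is transcribed towards it. Whether read-through from such genes contributed was not tested.

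The letters of poly(A) signals and 5′ splice sites were searched on the antisense strand. The hexamer AATAAA was present in 66.2% of the regions against 50.3% of the 2000 nt downstream of the same starts on the sense strand. The splice site letters GGTAAG were present in 21.6% against 38.9%. Early poly(A) letters were thus more frequent, and splice site letters less frequent, on the antisense side. The 3997 regions without AATAAA were denser than the 7829 with it in all 12 libraries, by 1.07-fold to 4.00-fold, the upper value being that of Nxf1 1 with 25 and 12 tags, 10 of the 25 from the GATD3 region. Without this library the highest was 1.67-fold. The part of CpG content, whose classes differed by 2.72-fold to 5.37-fold, was not tested. In turn, regions with GGTAAG against those without gave 0.756-fold to 1.87-fold. In the 200 nt before the first AATAAA the 12 libraries together held 753 tags, and in the 200 nt after it 368. Outside the 48 regions these were 456 and 366 tags. The log2 ratio after to before was then -0.42 ± 0.47 (SD, n = 3) in Alyref, -0.67 ± 0.66 (SD, n = 3) in Chtop, -0.88 ± 0.52 (SD, n = 3) in Nxf1 and -0.25 ± 1.24 (SD, n = 3) in the Control, below 0 in 10 of 12 libraries. The part of distance from the start, which is larger after the motif, was not tested. Around the first GGTAAG the tags numbered 119 before and 147 after outside the 48 regions.

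Single regions were named by the ranking above. The 12 highest were those of GATD3, RPS29, PLEKHG2, SMARCC2, DPP9, PPP6R3, LENG1, TLK2, PSMB3, ILF2, LASP1 and ASH2L, and 7 of the 12 had a tRNA or 7SL gene nearby. Only 86 regions met the conditions of the ranking. GATD3 ranked first through 10 tags in Nxf1 1, where 1 tag is worth 123 CPM. It had 1, 4 and 2 tags in Alyref, 0, 13 and 9 in Chtop, 10, 0 and 0 in Nxf1 and 0, 0 and 3 in the Control.

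**Figure D4:**
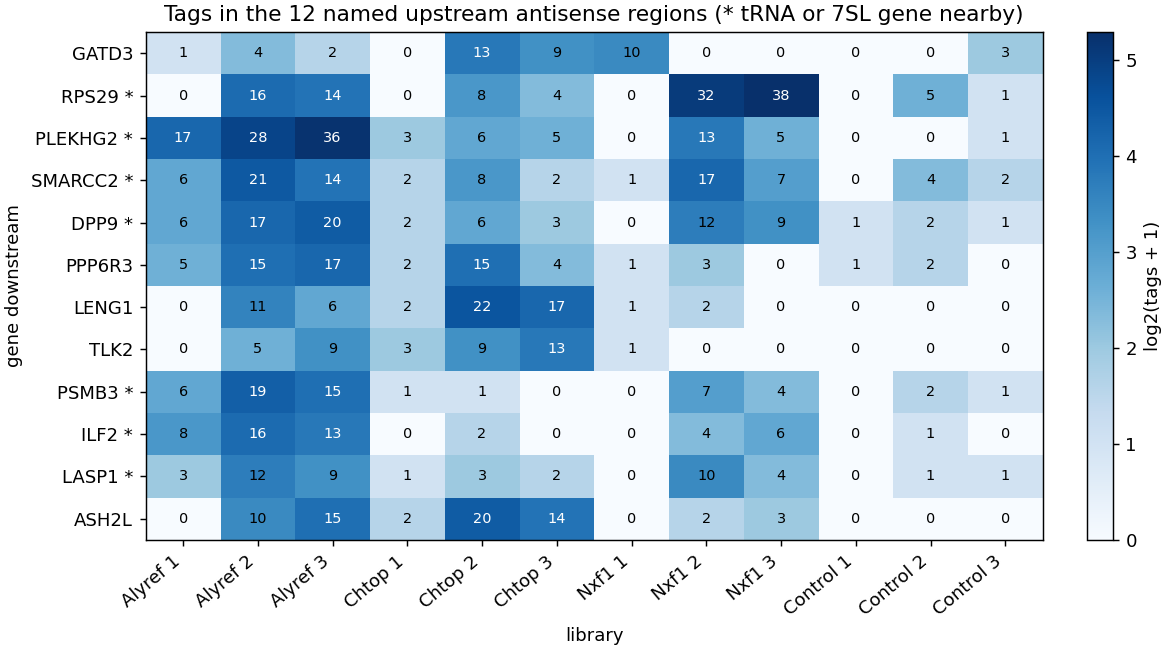
Tags in each library for the 12 named regions, with the number printed in each cell and the color giving log2(tags + 1). Asterisks mark the 7 regions with a tRNA or 7SL gene nearby, which carry few Chtop tags. In these counts, which are not scaled to depth, LENG1, TLK2 and ASH2L have their most tags in Chtop and 0 in the Control.

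Of the regions with a tRNA gene nearby, PLEKHG2, PSMB3 and ILF2 had their highest group mean in Alyref. Upstream of PLEKHG2 lay 17, 28 and 36 tags in Alyref, 3, 6 and 5 in Chtop, 0, 13 and 5 in Nxf1 and 0, 0 and 1 in the Control. Upstream of PSMB3, a proteasome subunit with TRN-GTT2-5 nearby, lay 6, 19 and 15 tags in Alyref, 1, 1 and 0 in Chtop, 0, 7 and 4 in Nxf1 and 0, 2 and 1 in the Control. ILF2, which encodes a binder of double-stranded RNA and has TRX-CAT1-1 nearby, had 8, 16 and 13 tags in Alyref and 0, 2 and 0 in Chtop. In CPM the Alyref libraries lay above the Chtop libraries of these 3 regions except for PLEKHG2, where Chtop 1 (63.9 CPM) lay above Alyref 2 and 3 (44.4 and 59.8 CPM). The other regions with a tRNA gene were ordered otherwise. SMARCC2 averaged 102 CPM in Nxf1, 46.9 in the Control, 43.5 in Alyref and 20.7 in Chtop, LASP1 35.6 in Nxf1 and 23.6 in Alyref, and DPP9 71.1 in the Control, 50.5 in Nxf1 and 44.7 in Alyref. In all 6 of these regions the Chtop mean was below the Alyref and Nxf1 means.

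Regions with no small RNA gene listed nearby looked otherwise. Upstream of LENG1, at chr19:54663460-54665459 on the plus strand, 61 tags lay on 56 bases with a median distance of 1239 nt from the start. The gene CNOT3 ends 4041 nt before this region on the same strand, so the region is in the class with a neighbour described above, and a part of CNOT3 RNA in its tags was not tested. They numbered 0, 11 and 6 in Alyref, 2, 22 and 17 in Chtop, 1, 2 and 0 in Nxf1 and 0 in each Control library. Chtop libraries stood at 42.6, 40.9 and 39.6 CPM, above the 0 to 17.4 CPM of Alyref. Upstream of TLK2, a kinase active in chromatin assembly, 40 tags lay on 36 bases, with 0, 5 and 9 in Alyref and 3, 9 and 13 in Chtop. ASH2L, a subunit of histone H3 lysine methyltransferases, had 66 tags on 62 bases, with 0, 10 and 15 in Alyref, 2, 20 and 14 in Chtop and 0, 2 and 3 in Nxf1. In these 3 regions the tags were spread over many bases, most of them single, whereas the PLEKHG2 region held 23 tags on its fullest base. PPP6R3, a regulatory subunit of protein phosphatase 6, lay between, with 60 of 62 factor tags in the window shown above but no small RNA gene listed. Whether an unlisted copy of such a gene lies there was not tested, and the PPP6R3 region is not among the 48. Its libraries had 61.6, 23.8 and 28.2 CPM in Alyref, 42.6, 27.9 and 9.32 in Chtop, 123, 25.3 and 0 in Nxf1 and 143, 43.1 and 0 in the Control, so the groups overlapped. In the regions of LENG1, TLK2 and ASH2L the Control was at 0 in all of its libraries, which at its depth allows more than the Chtop levels.

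A further kind of region held its tags on very few bases in factors and Control alike. Upstream of SLC32A1, the vesicular transporter of GABA, 119 tags lay on 5 bases and 57 of them on 1. It had 98.6, 25.4 and 18.3 CPM in Alyref, 149, 26.03 and 16.3 in Chtop, 247, 143 and 95.1 in Nxf1 and 0, 280 and 190 in the Control. The Control 2 value thus lay above all 9 factor libraries, and that of Control 3 above all of them but Nxf1 1. The region of ARL10, a small GTPase of the ARF family, held 64 tags on 4 bases and that of KLHL21, a cullin adaptor, 54 tags on 8.

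Tags per region were then tested with edgeR beside all genes. Only 3 regions, those of RPS29, SLC32A1 and ARL10, passed the filter on low counts among 3374 features, so these tests say nothing about the other regions. RPS29 was higher in Nxf1 than in Alyref and Chtop, by 4.03 in log2 units (edgeR adjusted p = 9.47e-08). Its libraries had 0, 270 and 213 CPM in Nxf1, 0, 25.4 and 23.2 in Alyref, 0, 14.9 and 9.32 in Chtop and 0, 108 and 27.2 in the Control, and the 0 values were all from replicate 1. RPS29 passed the filter only through Nxf1 2, Nxf1 3 and Control 2. Its p-values in the comparisons between factors are therefore descriptive. SLC32A1 was higher in Nxf1 as well, by 2.26 (edgeR adjusted p = 0.00685), a call that DESeq2 did not make (DESeq2 adjusted p = 0.191). These were 2 regions called in a comparison where 6.43% of features were called higher. Without Nxf1 replicate 2 neither was called, and without Nxf1 replicate 3 the count of regions called higher was 1. The reads of 7SL come from a family of near-identical copies, so the place of these tags is uncertain.

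RPS29 was also the 1 region called lower in Chtop than in the other factors, by -2.63 (edgeR adjusted p = 0.000918), where 12.9% of features were called lower, and it was not called without Nxf1 replicate 2. SLC32A1 was the 1 region called lower in Chtop than in the Control, by -2.84 (edgeR adjusted p = 0.0121), where 5.45% of features were called lower. That call was lost without Chtop replicate 3, Control replicate 2 or Control replicate 3, and with DESeq2. Alyref against the Control gave 0 calls among the 3 regions and 0.237% of all features, and Alyref against the other factors 0 calls and 3.23%. Nxf1 against the Control gave 0 calls and 0.0% of features. At an unadjusted edgeR p under 0.05 these 3 comparisons had 1, 2 and 1 regions, and DESeq2 called 0 in the last 2 of them and gave no adjusted p for these regions in the first.

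Without the filter 3700 regions with a tag entered among 32806 features. Chtop was then lower than the other factors in 7 regions, with 0.506% of features called lower. They were RPS29, PSMB3, ILF2, PLEKHG2, SMARCC2, DPP9 and HSPA6, and all 7 were among the 48 regions next to a tRNA or 7SL gene. PSMB3 differed by -3.63 (edgeR adjusted p = 0.00139) and ILF2 by -3.57 (edgeR adjusted p = 0.00218). Chtop was higher in 2 regions, LENG1 by 1.92 (edgeR adjusted p = 0.0306) and HSDL2 by 3.46 (edgeR adjusted p = 0.0288), with 2.19% of features called higher and neither region next to such a gene. Alyref was higher than the other factors in 2 regions, with 0.378% of features called. HES7, a transcription factor of the segmentation clock, differed by 3.03 (edgeR adjusted p = 0.00477), with 5, 21 and 20 tags in Alyref against 0, 2 and 1 in Chtop, 0, 1 and 1 in Nxf1 and 0, 2 and 0 in the Control. HSPA6, a heat shock protein, was the other. Both had a tRNA gene nearby.

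Nxf1 was higher than the other factors in 12 regions of this unfiltered fit, with 0.497% of features called higher. Of the 12, 9 had tags in at least 2 Nxf1 libraries and 3 in a single one. The 8 tags upstream of DLGAP5, a spindle protein, were all in Nxf1 3, and the 6 upstream of the kinase gene NEK7 were all in Nxf1 2. The 9 were RPS29, SLC32A1, KLHL21, SMARCC2, WFDC2, RASD1, TSPAN7, TNFRSF18 and CDK17, the last 5 with 4 to 9 tags over all libraries. SMARCC2, with a tRNA gene nearby, was higher by 1.77 (edgeR adjusted p = 0.0382). KLHL21 had 123, 75.9 and 55.9 CPM in Nxf1 against 2.33 to 61.6 in the Alyref and Chtop libraries and 0, 21.6 and 54.3 in the Control. These regions and those of the paragraph before were picked after their values were seen.

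Gene lists of the pathway held 15 tags in all. Of 5 genes whose upstream RNAs are often followed in decay work, 2 had a kept region, POGZ with 0 tags and EXT1 with 2. Of 18 export and cap-binding genes 7 had one, and 4 of them held 11 tags in all, 6 of these upstream of the helicase gene DDX39A and 1 upstream of NXF1 itself. THOC2, THOC3 and ZC3H11A had 0 tags. Of 19 genes of the nuclear exosome and its targeting complexes 6 had a region, and 2 of them held a tag each, EXOSC3 and PABPN1. In the export list 57.1% of regions had a tag, against 31.3% of all regions. No tag of these 3 lists was from the Control, which gave 3.62% of the tags of all regions. With 15 tags in all, this absence does not set the lists apart from other regions. The median was 1, 1 and 0 tags per region, against 0 over all regions.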

How the data were processed

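The deposited values were counts. The authors removed phiX reads (Bowtie 1.1.2), extracted molecular barcodes (UMI-tools 0.5.3), aligned to hg19 (STAR 2.4.2a, versions per the submitters' processing notes), kept unique hits and collapsed duplicates, giving tags per crosslinked base, of which 12 replicate files were used and pooled files not. Regions came from GRCh37 and GENCODE 44 lifted to it, with 647 readthrough genes kept only as overlaps. A base shared by windows went to the nearest start. Measures were log2 ratios of (tags + 0.5) per nt. Two-sided exact permutation tests had 84 (3 against 6, smallest p 0.0238) or 20 splits and Benjamini-Hochberg adjustment in 2 families of 21. Counts per region and gene were fitted with edgeR 4.0.16 (quasi-likelihood, TMM, filterByExpr, 12 libraries, adjusted p under 0.05), with DESeq2 1.42.0 as an alternative. The edgeR fit was tried on simulated counts of the features past the filter only. That trial says nothing about sparse regions or the fit without the filter. Named were the 12 regions of highest mean CPM, the called regions and 3 gene lists. The sequence of 1 region of the ranking is not reported here. Members and lists were chosen with earlier results of these data known.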

Additional observations from a re-analysis of the deposited data

How the results depend on the processing

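Antisense counts of the Control (27, 150 and 175 tags) and of Nxf1 1 (37 tags) limit every comparison that uses them, and none of the 42 differences between groups was past the threshold, which 3 libraries against the 3 of the Control cannot reach. Leaving out repeats was not run, since the genome file does not mark them. In counts per feature, deviations of same-number libraries correlated by -0.18 to 0.26 in 18 pairs, those of other libraries by -0.28 to 0.23 in 36. The antisense to first intron ratio did follow the replicate number, with replicate 1 highest and replicate 2 lowest in each group. The main permutation tests took no account of this. Permuting within the replicate block could change no call of the 42, since none was past the threshold and no blocked p can reach it. The smallest blocked p is 0.0741 with 27 arrangements against the other factors and 0.25 with 8 against the Control. Chtop against other factors in the antisense to first intron ratio gave that 0.0741 (exact permutation within blocks). Chtop was higher there in all 3 replicate numbers, and the exact permutation p without blocks was 0.262. In edgeR the replicate block called 1 region lower in Alyref than in the Control, as did library sizes without TMM. DESeq2 called 0 regions lower in Chtop than in the Control and 1 higher in Nxf1 than in the other factors. Without the low-count filter 2 regions were higher in Alyref, 2 higher and 7 lower in Chtop and 12 higher in Nxf1 than in the other factors.

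Directions that turned are given as factor minus comparison group, in percentage points for shares and log2 for ratios. With the outermost start, Alyref minus Control became 0.007 for the antisense share and 0.083 for the ratio to the first intron, Nxf1 minus Control 0.051 for the ratio to the first exon and 0.23 for that to sense upstream, and Alyref minus the other factors -0.34 (exact permutation p = 0.0476, past the threshold before adjustment) for that to sense upstream and -0.0029 near to far. Without a neighbour within 5000 nt, Alyref minus Control became 0.0013 (share), -0.25 (distal), 0.017 (intron) and -0.11 (near to far), Nxf1 minus Control -0.26 (distal) and -0.34 (near to far), Chtop minus Control -0.17 (near to far), and Nxf1 minus the other factors -0.20 (sense upstream). Without the 10 fullest regions, Chtop minus the others became 0.0079 (share), Nxf1 minus Control -0.0077 (intron), Nxf1 minus the others -0.028 (sense upstream) and Alyref minus the others -0.056 (uracil share). In a 1000 nt window, Alyref minus Control became 0.013 (share) and -0.21 (near to far), Alyref minus the others -0.0068 (sense upstream), Chtop -0.36 against the others and -0.57 against Control (near to far), and Nxf1 0.17 against the others and -0.22 against Control (near to far) and 0.031 against the others (intron). Without the 48 regions next to a tRNA or 7SL gene, an alternative chosen after seeing the data, Chtop minus the others became 0.025 (share), Alyref minus Control -0.049 (distal), Nxf1 minus Control -0.0058 (distal) and -0.0014 (intron), and Alyref minus the others -0.045 (sense upstream).

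Leaving out 1 library at a time, Alyref minus Control ranged from -0.088 to 0.027 (share), -0.23 to 0.65 (distal) and -0.45 to 0.19 (intron), and Chtop minus Control from -0.044 to 0.060 (share). Nxf1 minus Control ranged from -0.73 to 0.33 (first exon), -0.20 to 0.67 (distal), -0.31 to 0.33 (intron), -0.25 to 0.057 (sense upstream), -3.2e-05 to 0.66 (near to far) and -1.73 to 4.07 (uracil share). Against the other factors, Alyref ranged from -0.071 to 0.19 (sense upstream), -0.13 to 0.14 (near to far) and -0.56 to 5.00 (uracil share), Chtop from -0.079 to 0.019 (share), -0.64 to 0.026 (first exon), -0.078 to 0.20 (near to far) and -0.83 to 9.22 (uracil share), and Nxf1 from 0.62 to 1.28 (first exon), -0.49 to 0.21 (distal), -0.36 to 0.16 (intron) and -0.41 to 0.26 (near to far). Regions called ranged from 0 to 1 lower in Alyref against Control, Chtop against Control and Alyref against the others, from 0 to 5 lower in Chtop against the others and from 0 to 5 higher in Nxf1 against the others, the 5 without Chtop replicate 1 or, for Nxf1, also without Alyref replicate 1, and the 0 without Nxf1 replicate 2. Between 3 and 8 regions passed the filter in these fits, against 3 with all libraries.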
